A study of Homo sapiens with 3 samples.

Results

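The genes described here are 10 members of the epidermal growth factor (EGF) receptor system and its immediate neighbours: the receptors EGFR, ERBB2, ERBB3 and IGF1R, the ligands AREG, EREG, TGFA and HBEGF, and the feedback inhibitors ERRFI1 and DUSP6. They were chosen by gene symbol, and all 10 were found once each among the 30923 genes of the deposited table. RNA was sequenced from QBC-939, an established human cholangiocarcinoma (bile duct cancer) cell line whose genotype is labelled WT in every group. The 3 groups are cells that overexpressed the control called NC (label oe-NC), those that overexpressed miR-183-5p and those that overexpressed miR-182-5p. Each group is a single library, and the labels give no dose, time or number of cultures. The expression system is not described beyond the ending "mim" in the titles of both microRNA libraries, and microRNA levels were not analysed here. Nothing can be set against replicate spread, so no p-value is given. The 95% intervals below cover counting error alone, and PCR copies are not independent molecules.

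EGFR, ERBB2 and ERBB3 belong to the family of EGF receptor tyrosine kinases, which signal as dimers. EGFR binds AREG, EREG, TGFA and HBEGF, which are made as membrane-bound precursors and released by metalloproteases. ERBB2 has no known ligand of its own, and ERBB3, whose kinase is nearly inactive, binds neuregulins and signals mainly through PI3 kinase when paired with ERBB2. Active receptors switch on the Ras-ERK cascade, which in turn induces its own brakes. ERRFI1 (also called MIG6) binds and inhibits EGF receptor kinases, and DUSP6 is a phosphatase that inactivates ERK. IGF1R is the receptor for insulin-like growth factors, a separate tyrosine kinase that feeds the same cascades. Bile duct epithelium and its cancers commonly express this system.

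The 2 microRNAs are shown first because their seeds (bases 2 to 8, in capitals) set the letters searched for in the members. They share 5 of 7 seed bases. Both are encoded on the minus strand of chromosome 7 (RefSeq, GRCh38.p14), miR-182-5p at chr7:129770447-129770470 and miR-183-5p at chr7:129774967-129774988.
hsa-miR-182-5p: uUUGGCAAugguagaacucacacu
hsa-miR-183-5p: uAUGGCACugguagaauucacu

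The complement of the miR-182-5p seed, TTGCCAA, was searched on the transcript strand in the longest protein-coding 3' UTR of each member (GENCODE 29, GRCh38), as was GTGCCAT for miR-183-5p. Of 10798 genes searched, all with an FPKM (fragments relative to a gene's length and library size) of 1 or more, 15.1% hold the first and 12.2% the second. In 3' UTRs of at least 3000 bases these shares were 36.4% and 29.8% of 2211 genes. Among the members, IGF1R and HBEGF hold 1 match to each microRNA, TGFA holds 1 to miR-183-5p and ERRFI1 holds 1 to miR-182-5p. EGFR, ERBB2, ERBB3, AREG, EREG and DUSP6 hold neither run of letters in this window. The 6 matches are printed 5' to 3' with the matching letters in capitals, so that the flanking bases can be compared.
IGF1R with miR-182-5p, plus strand of chr15:98958028-98958034: aacgctgcctaattTTGCCAAaat
HBEGF with miR-182-5p, minus strand of chr5:140334141-140334147: ctcccataattgctTTGCCAAaat
ERRFI1 with miR-182-5p, minus strand of chr1:8014127-8014133: ggcctcttccaccgTTGCCAAtct
IGF1R with miR-183-5p, plus strand of chr15:98963581-98963587: tcattgtcagcacaGTGCCATgga
TGFA with miR-183-5p, minus strand of chr2:70450010-70450016: ggggttcagaaatgGTGCCATtga
HBEGF with miR-183-5p, minus strand of chr5:140332926-140332932: tctggaagtttctgGTGCCATttc

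The miR-182-5p matches of IGF1R and HBEGF are followed by an A, and that of ERRFI1 is not. The ERRFI1 match lies in the 3' UTR of the transcript ENST00000467067.1 but inside the coding sequence of another ERRFI1 transcript, ENST00000377482.9. The window searched was short in AREG (269 bases) and ERBB2 (618 bases) and long in EGFR (6011 bases) and IGF1R (7088 bases). A match of this kind is a description of sequence and says nothing about binding.

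Total counts per library ranged from 61709874 to 67427313. Mitochondrially encoded genes took 16.7% of them with miR-182-5p, 16.1% with miR-183-5p and 13.5% in NC. The biliary epithelial markers KRT19, EPCAM and SOX9 had FPKM values of 22.2 to 179 in all 3 libraries, whereas the biliary keratin KRT7 had 1.03 to 1.46. Of the 3 hepatocyte markers ALB, APOA1 and TF, none exceeded 15 counts, and the leukocyte marker PTPRC had 0 to 9. The fibroblast marker COL1A1 was present at a low level and was higher with miR-182-5p, at 1197 counts against 672 in NC and 826 with miR-183-5p, while the fibroblast marker PDGFRB had 17 to 52. The macrophage-associated gene CD68 had 107 to 248 counts, and the endothelial markers PECAM1 and VWF 11 to 121. The markers COL1A2, CD3E and CDH5 have no row in the table analysed here. Any part of these differences in the results below was not tested.

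In absolute level the ligands AREG and EREG led the group, and the receptors lay far below them. FPKM, which corrects for transcript length, allows genes to be compared. In the NC library AREG stood at 131 FPKM, above 98.5% of the genes with an FPKM of at least 1, and EREG at 55.8, above 96.0%. ERRFI1 followed at 37.2, ERBB3 at 18.7, DUSP6 at 16.7, TGFA at 11.2, IGF1R at 8.37, ERBB2 at 6.59, EGFR at 6.44 and HBEGF at 1.97 FPKM. The order of the 10 genes was the same in all 3 libraries. The only neighbours in it whose counting intervals overlapped were ERBB2 (6.42 to 6.77) and EGFR (6.28 to 6.60), and only in the NC library.

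**Figure D1:**
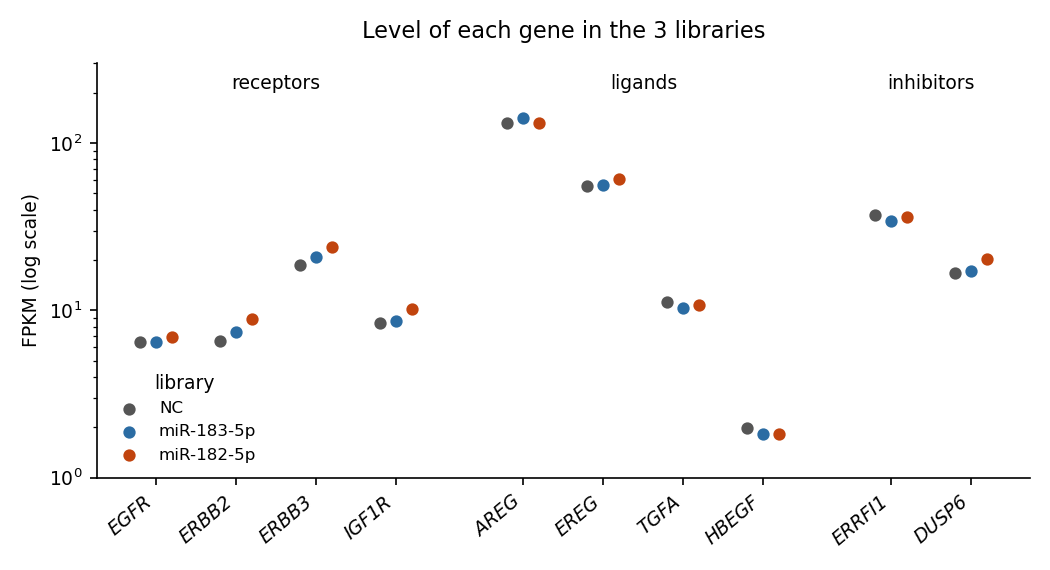
FPKM of each gene (log scale) in the NC, miR-183-5p and miR-182-5p libraries, with 1 point per library. The genes span from about 1.8 FPKM for HBEGF to 141 for AREG, and the spread between genes is far wider than that between libraries.

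Within the ligands, AREG made up 65.5% of the summed FPKM of the 4 genes in the NC library, EREG 27.9%, TGFA 5.59% and HBEGF 0.986%. AREG had 67.4% of this sum with miR-183-5p and 64.1% with miR-182-5p. AREG and EREG lie on the plus strand of chromosome 4 (74445136 to 74455005 and 74365145 to 74388749, GRCh38), between EPGN and BTC, which encode further EGF family ligands. In the NC library EPGN had 0.0869 FPKM (23 counts) and BTC had 3.13. The 4 ligand genes of this locus thus ranged from barely detected to among the most abundant transcripts. Of the summed FPKM of EGFR, ERBB2 and ERBB3 in the NC library, ERBB3 had 58.9%, ERBB2 20.8% and EGFR 20.3%. The fourth receptor of the family, ERBB4, had 8 to 14 counts in the 3 libraries.

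The comparison of each microRNA library with NC addresses which transcripts differ when that microRNA is overexpressed. Both comparisons use the same NC library, so likeness between them is not independent evidence. Ratios are of CPM (counts scaled to the library total). A gene was called lower at a ratio of at most 0.8 and higher at the inverse of 0.8 or more, a rule of size. In the miR-182-5p library ERBB2 and ERBB3 were called higher than in NC, and the remaining 8 members were not called. Across all 13267 genes that reached an FPKM of 1 in either library, 20.7% were called higher and 15.3% lower, so 2 of 10 members higher and 0 lower is near the background. With library sizes scaled by the trimmed mean of M-values (TMM), these shares of all genes were 17.5% and 20.6%, without mitochondrially encoded genes 23.96% and 11.1%, and on the TPM scale 17.0% and 21.7%.

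Counting intervals are narrow at this depth, so many genes of any kind have intervals away from 1. For miR-182-5p against NC, 6 of 10 members had intervals above 1 (36.3% of all genes) and 2 below 1 (38.5%). None of the 10 was past 2-fold, as were 4.74% of all genes. The median CPM ratio of the members was 1.07, beside 0.993 for all genes.

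ERBB2 (ENSG00000141736, chromosome 17, 39687914 to 39730426, plus strand), the ligandless partner receptor, was at 108 CPM (6672 counts) with miR-182-5p, 91.2 CPM (6149) with miR-183-5p and 81.8 CPM (5280) in NC. The NC library was lowest and the miR-182-5p library highest, with the miR-183-5p library between them. The ratio to NC was 1.32 (1.27 to 1.37) with miR-182-5p and 1.11 (1.07 to 1.16) with miR-183-5p. ERBB2 exceeded 83.5% of all genes by this ratio in the first comparison and 80.5% in the second. Its span overlaps the ends of PGAP3 and MIEN1 on the opposite strand. PGAP3 had 1812 counts with miR-182-5p and 2141 in NC, and MIEN1 had 1605 and 2044. Whether counting used strand is not known, and the part of these neighbours in the ERBB2 counts was not tested.

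ERBB3 (ENSG00000065361, chromosome 12, 56076799 to 56103505, plus strand), the neuregulin receptor, had the same order of libraries. It was at 251.6 CPM (15524 counts) with miR-182-5p, 217 CPM (14660) with miR-183-5p and 198 CPM (12806) in NC, and overlaps no other gene of the table. Relative to NC it was at 1.27 (1.24 to 1.30) with miR-182-5p and 1.095 (1.07 to 1.12) with miR-183-5p. The miR-182-5p value lies just past the limit for a higher call. It fell short of the limit with TMM (1.22), with median-of-ratios size factors (1.21) and on the TPM scale (1.21). ERBB2 alone was thus called under these scalings, itself just past the limit at 1.268, 1.266 and 1.257 in the same order.

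EGFR (ENSG00000146648, chromosome 7, 55019017 to 55211628, plus strand) hardly differed between the libraries. It was at 102 CPM (6316 counts) with miR-182-5p, 96.1 CPM (6483) with miR-183-5p and 96.9 CPM (6253) in NC. The ratio to NC was 1.06 (1.02 to 1.09) with miR-182-5p and 0.992 (0.958 to 1.03) with miR-183-5p. Over the 6 ways of scaling the libraries the first ranged from 1.01 to 1.097 and the second from 0.951 to 1.02, so the direction with miR-183-5p changed with the scaling.

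IGF1R (ENSG00000140443, chromosome 15, 98648539 to 98964530, plus strand) was higher in the miR-182-5p library than in both others. It was at 168 CPM (10353 counts) with miR-182-5p, 142.6 CPM (9612) with miR-183-5p and 140.3 CPM (9051) in NC. Against NC its ratio was 1.196 (1.16 to 1.23) with miR-182-5p, just short of the limit, and 1.02 (0.987 to 1.05) with miR-183-5p. IGF1R carries a TTGCCAA match followed by A (printed above), and any part of that match in these values was not tested. The overlapping genes AC118658 on its strand and AC036108 on the opposite strand had at most 21 counts each.

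With miR-182-5p all 4 receptors exceeded NC under each of the 6 scalings. EGFR did so only narrowly, at 1.005 on the TPM scale and 1.01 with TMM. Each scaling changed ratios by nearly 1 common factor (for EREG 0.952 to 1.04 times the total-count ratio), so the scalings are not separate evidence. With total counts the median ratio of all genes was 0.993, so ratios above 1 were common among all genes. The median log2 ratio of all genes was 0.0459 without mitochondrially encoded genes, -0.0690 with TMM and -0.0807 on the TPM scale. By total-count ratio EGFR exceeded 59.8% of all genes, IGF1R 75.4%, ERBB3 80.4% and ERBB2 83.5%. The ratio of 2 genes' counts inside a library does not depend on its scaling, and such ratios were chosen after the values were seen. ERBB2 had 1.06 counts per EGFR count with miR-182-5p, 0.948 with miR-183-5p and 0.844 in NC. Against NC this ratio was 1.251 times as large with miR-182-5p (1.19 to 1.32) and 1.12 times with miR-183-5p (1.07 to 1.18). ERBB3 per EGFR was 1.2002 times as large with miR-182-5p (1.15 to 1.252) and 1.104 times with miR-183-5p (1.06 to 1.15). ERBB2 per ERBB3 did not differ beyond counting error, at 1.04 times NC with miR-182-5p (0.998 to 1.09) and 1.02 times with miR-183-5p (0.974 to 1.06). ERBB2 and ERBB3 per EGFR thus differed from NC beyond counting error in both microRNA libraries, which share the NC library. For IGF1R per EGFR the value was 1.13 times NC with miR-182-5p (1.08 to 1.18) and 1.02 times with miR-183-5p (0.979 to 1.07). How often other pairs of genes differ as much was not computed.

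**Figure D2:**
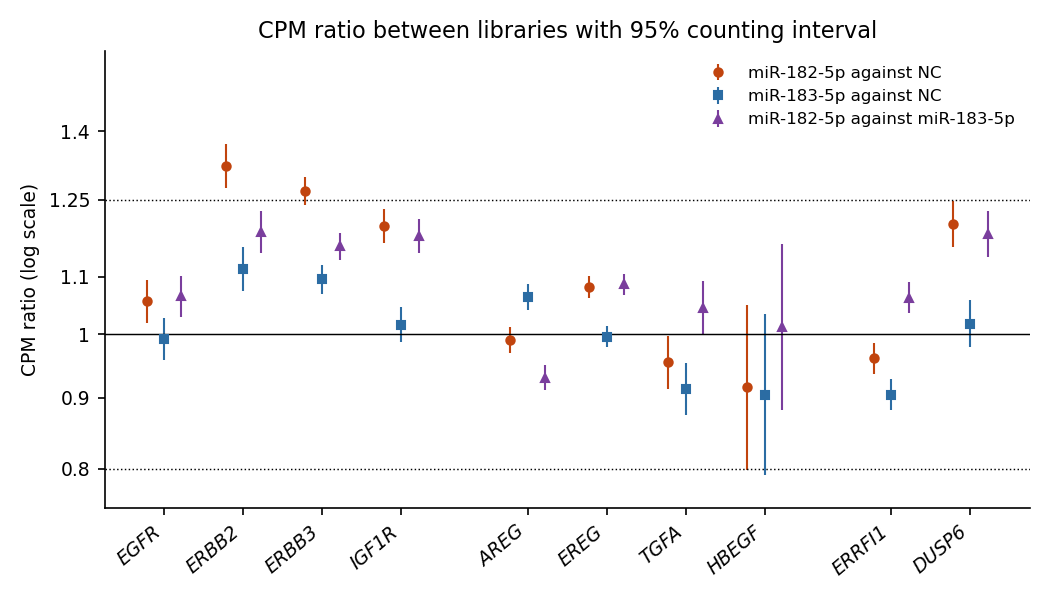
CPM ratio of each gene (log scale) for the 3 pairs of libraries, with bars for the 95% counting interval and dotted lines at 0.8 and its inverse. ERBB2 and ERBB3 with miR-182-5p against NC, at 1.32 and 1.27, are the only points above the upper line, and no point lies below 0.8.

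The ligands were closer to NC than ERBB2 and ERBB3 in the miR-182-5p library. AREG (amphiregulin, ENSG00000109321) was at 256 CPM (15790 counts) with miR-182-5p, 275 CPM (18538) with miR-183-5p and 258 CPM (16677) in NC. The miR-183-5p library was thus the highest for AREG, which held for no other member. The ratio to NC was 0.99 (0.969 to 1.01) with miR-182-5p, on either side of 1 depending on the scaling (0.942 to 1.03), and 1.06 (1.04 to 1.09) with miR-183-5p.

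EREG (epiregulin, ENSG00000124882), the neighbour of AREG, was at 414 CPM (25548 counts) with miR-182-5p, 381 CPM (25697) with miR-183-5p and 383 CPM (24697) in NC. Its ratio to NC was 1.08 (1.06 to 1.101) with miR-182-5p and 0.996 (0.978 to 1.01) with miR-183-5p, the latter from 0.955 to 1.03 over the scalings. The 2 neighbours differed in opposite ways between the libraries. EREG had 1.62 counts per AREG count with miR-182-5p, 1.39 with miR-183-5p and 1.48 in NC. Between the 2 microRNA libraries this ratio was 1.17 times as large with miR-182-5p (1.14 to 1.1998).

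TGFA (ENSG00000163235, chromosome 2, 70447284 to 70553826, minus strand), the ligand of classic autocrine EGFR signalling, was highest in NC. It was at 63.1 CPM (3893 counts) with miR-182-5p, 60.4 CPM (4073) with miR-183-5p and 66.1 CPM (4265) in NC. The ratio to NC was 0.954 (0.913 to 0.997) with miR-182-5p and 0.914 (0.875 to 0.954) with miR-183-5p, below 1 under all 6 scalings in both. With miR-183-5p 29.6% of all genes had a lower ratio. TGFA has the GTGCCAT match printed above, and any part of that match in these values was not tested.

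HBEGF (heparin-binding EGF-like growth factor, ENSG00000113070, chromosome 5, 140332843 to 140346603, minus strand) was the least abundant member. It was at 6.51 CPM (402 counts) with miR-182-5p, 6.44 CPM (434) with miR-183-5p and 7.11 CPM (459) in NC. Its level relative to NC was 0.916 (0.799 to 1.05) with miR-182-5p and 0.905 (0.792 to 1.03) with miR-183-5p. Both intervals include 1, so a difference was not detectable at this depth. HBEGF holds a match to each seed.

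The feedback inhibitors ERRFI1 and DUSP6 differed from each other. ERRFI1 (ENSG00000116285, chromosome 1, 8004404 to 8026309, minus strand) was at 179.8 CPM (11093 counts) with miR-182-5p, 169 CPM (11408) with miR-183-5p and 187 CPM (12068) in NC. NC was the highest library and miR-183-5p the lowest. Relative to NC it was at 0.961 (0.936 to 0.986) with miR-182-5p, from 0.915 to 0.999 over the scalings, and 0.905 (0.882 to 0.928) with miR-183-5p. Its ratio of miR-182-5p to miR-183-5p was 1.06 (1.03 to 1.09) with total counts and 1.01 with TMM. Any part of the match printed above in these values was not tested. AL034417, on the opposite strand, overlaps it with 85 to 119 counts.

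DUSP6 (ENSG00000139318, chromosome 12, 89347235 to 89352501, minus strand) was at 93.1 CPM (5745 counts) with miR-182-5p, 78.9 CPM (5317) with miR-183-5p and 77.5 CPM (5000) in NC. The miR-182-5p library stood above the other two, which lay close together. Relative to NC it was at 1.201 (1.16 to 1.248) with miR-182-5p, just short of the limit, and 1.02 (0.979 to 1.06) with miR-183-5p. DUSP6 per ERRFI1 count was 0.518 with miR-182-5p, 0.466 with miR-183-5p and 0.414 in NC, which relative to NC has an interval of 1.19 to 1.31 with miR-182-5p and 1.07 to 1.18 with miR-183-5p. The noncoding gene AC024909 overlaps DUSP6 on the opposite strand, with 261, 225 and 224 counts in the same order of libraries.

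In the miR-183-5p library no member was called against NC, and 8.97% of 12926 genes were called higher and 7.50% lower. Those shares were 7.18% and 11.5% on the TPM scale and 10.7% and 5.87% without mitochondrially encoded genes. Intervals lay above 1 for 3 members (ERBB2, ERBB3 and AREG), beside 25.1% of all genes, and below 1 for 2 (TGFA and ERRFI1), beside 37.4%. None was past 2-fold, as were 2.81% of all genes. The median CPM ratio of the members was 1.01, beside 0.977 for all genes.

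The 2 microRNA libraries can be compared without NC. No member was called, where 14.5% of 13308 genes were higher with miR-182-5p and 6.45% lower (10.8% and 10.5% with TMM). Intervals were above 1 for 7 members (35.8% of all genes) and below 1 for AREG alone (29.8%). None was past 2-fold (3.15% of all genes). The highest ratios of miR-182-5p to miR-183-5p were those of ERBB2 at 1.19 (1.15 to 1.23), DUSP6 at 1.18 (1.14 to 1.23), IGF1R at 1.18 (1.14 to 1.21) and ERBB3 at 1.16 (1.13 to 1.18). AREG was at 0.931 (0.911 to 0.951), and TGFA (0.999 to 1.09) and HBEGF (0.881 to 1.16) had intervals that include 1.

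The level and length of a gene moved with the ratio of miR-182-5p to NC across all genes. Among genes with 1 to 2 FPKM in NC the median ratio was 1.102, among those with 5 to 20 FPKM 0.943, and among those with at least 50 FPKM 0.824. Of the 10 members, 6 have 5 to 20 FPKM in NC (EGFR, ERBB2, ERBB3, IGF1R, TGFA and DUSP6). In that range 8.58% of 4838 genes were called higher, and ERBB2 and ERBB3 were 2 of the 6 members. Genes with a total exon length of at least 10000 bases had a median ratio of 1.08, with 19.9% of 1243 called higher. EGFR (12521 bases), ERBB2 (10321) and IGF1R (13941) are in this class, and ERBB3 has 9039. With both limits 13.2% of 416 genes were called higher. AREG and EREG, both above 50 FPKM, were at 0.99 and 1.08 where the median of such genes was 0.824. These ranges were set after the values were seen, and the part of level and length in the members' ratios was not tested.

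**Figure D3:**
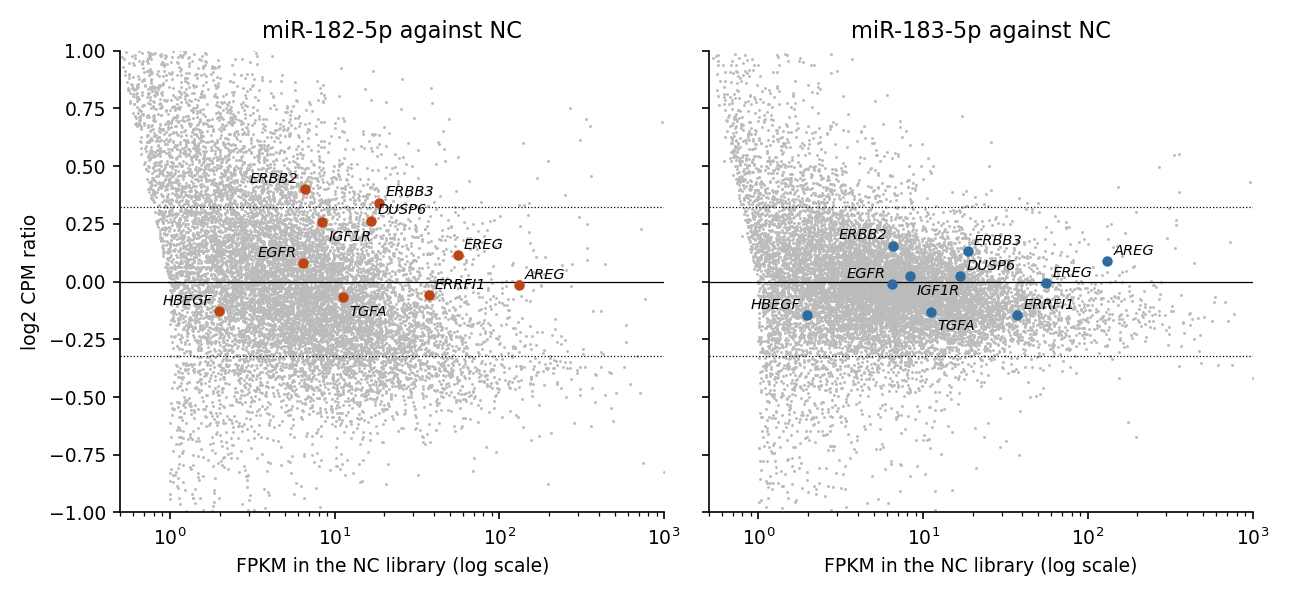
log2 CPM ratio to NC against FPKM in the NC library (log scale) for miR-182-5p (left) and miR-183-5p (right), with all genes in grey, the 10 members in colour and dotted lines at the limits of the rule. ERBB2 and ERBB3 lie above the upper line on the left only, and the grey cloud on the left slopes downwards with level. In total 652 genes on the left and 386 on the right lie outside the axes or have no finite value.

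Other genes of the pathway were taken from 7 lists of 83 genes, of which 78 are in the table and 67 passed the filter (an FPKM of 1 in either library) for miR-182-5p against NC. Of these 67, 8 were called higher and 7 lower, beside 20.7% and 15.3% of all genes, and their median ratio was 1.01. The split depended on the scaling. It was 3 higher and 9 lower with TMM, with median-of-ratios factors and on the TPM scale, 8 and 5 with the deposited FPKM, and 10 and 2 without mitochondrially encoded genes. SOCS4, SOS2 and EPHA4 (higher) and PTPN1 and PIK3CB (lower) were called under all 6 scalings, and the other 10 of the 15 calls were not. EPHA4 had 1.35 FPKM with miR-182-5p and 0.966 in NC, so it passed the filter only through the library where it was higher. The 11 genes below the filter have counts too, among them IGFBP2 at 1.80 (1.46 to 2.23), IRS2 at 1.41 (1.24 to 1.602) and MUC4 at 1.403 (1.22 to 1.62). DUSP4, also below it, was lower at 0.746 (0.623 to 0.892). The intervals of the remaining genes below the filter include 1. Of the 7 remaining ligand genes of the EGF family, BTC alone passed the filter, at 1.05 times NC (0.937 to 1.17), while EGF had 140 to 171 counts and NRG4 88 to 109. Among the 4 genes of ligand release, RHBDF1, a cofactor of the shedding protease ADAM17, was at 1.254 (1.22 to 1.28), while ADAM17 itself was at 1.09 and ADAM10 at 0.983. RHBDF1 was called under 3 of the 6 scalings. Of 11 receptor partners and attenuators that passed, the signalling suppressor SOCS4 was at 1.36 (1.31 to 1.42) and the phosphatase PTPN1 at 0.755 (0.722 to 0.790).

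Of 16 adaptor and Ras-ERK genes, the kinases MAP2K2 at 0.779 (0.748 to 0.812) and MAP2K1 at 0.794 (0.763 to 0.825) and the adaptor GRB2 at 0.798 (0.774 to 0.823) were called lower, and the exchange factor SOS2 at 1.38 (1.26 to 1.503) higher. Thus 3 of 16 were called lower, where 15.3% of all genes were, and their median was 0.931. Without mitochondrially encoded genes none of the 16 was called lower, and with TMM 5 were, NRAS and PTPN11 being added. The 17 ERK-induced and feedback genes that passed the filter, the list nearest to DUSP6, had a median of 1.09. The receptor EPHA4 at 1.38 (1.23 to 1.54) and the inhibitor SPRY1 at 1.26 (1.13 to 1.403) were called higher, and the AP-1 factor FOSL1 at 0.788 (0.741 to 0.838) lower. SPRY1 was called under 3 of the 6 scalings and FOSL1 under 5. Intervals were above 1 for 9 of the 17 (36.3% of all genes), among them SPRY4 at 1.19, and below 1 for 6 (38.5%), among them ETV4 at 0.917 and CCND1 at 0.925.

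The IGF axis, to which IGF1R belongs, had 8 genes past the filter, with a median of 1.01. The insulin receptor INSR at 1.30 (1.21 to 1.397) and the clearance receptor IGF2R at 1.26 (1.24 to 1.29) were called higher, and the binding protein IGFBP4 at 0.783 (0.763 to 0.804) lower. INSR and IGF2R were not called with TMM, with median-of-ratios factors or on the TPM scale, and IGFBP4 was not called without mitochondrially encoded genes. The ligand IGF2 had 31.5 FPKM in NC and was at 0.958, and IGF1 has no row in the table analysed here. In the PI3K-AKT and STAT branch, PLCG1, a phospholipase activated by receptors, was at 1.28 (1.24 to 1.33) and the kinase subunit PIK3CB at 0.757 (0.719 to 0.797), with a median of 0.977 over 10 genes. PLCG1 was called under 3 of the 6 scalings. PLCG1 overlaps ZHX3 (2369 counts with miR-182-5p) on the opposite strand, and MAP2K1 overlaps SNAPC5 (724), so their counts are less certain if strand was not used.

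In the miR-183-5p library 1 of the 66 genes of these lists that passed the filter was called higher than in NC and 1 lower, beside 8.97% and 7.50% of all genes. They were SOS2 at 1.28 (1.18 to 1.398) and IGFBP4 at 0.773 (0.754 to 0.793), both called in the same direction with miR-182-5p against the same NC library. The median ratio was 0.979. On the TPM scale SOS2 was not called and 4 genes were lower. Between the microRNA libraries, SPRY1 at 1.37 (1.23 to 1.53), the adaptor GAB1 at 1.26 (1.17 to 1.35) and SOCS4 at 1.251 (1.203 to 1.30) were higher with miR-182-5p and none of 67 was called lower. Of these 3, SPRY1 alone was called with TMM, with median-of-ratios factors and on the TPM scale.

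**Figure D4:**
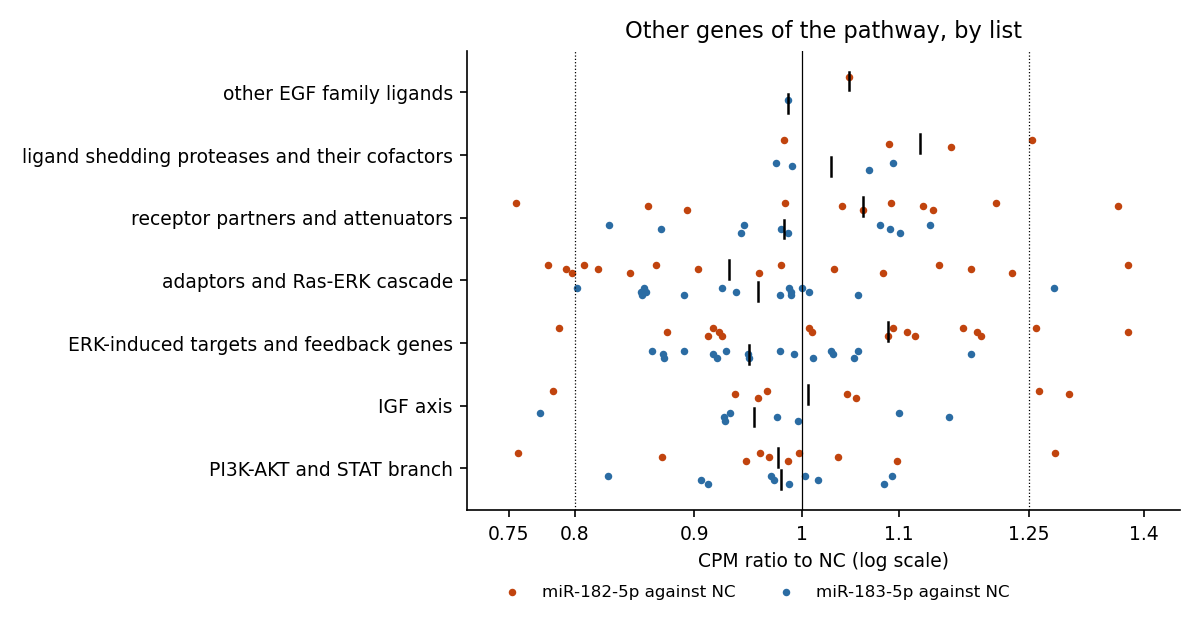
CPM ratio to NC (log scale) of the genes of the 7 lists that passed the filter in the miR-182-5p and miR-183-5p libraries, with 1 point per gene, a black bar at each list's median and dotted lines at 0.8 and its inverse. Points spread to both sides of 1 in each list with more than 1 gene, and past the dotted lines mainly with miR-182-5p (8 higher and 7 lower with total counts, 3 and 9 with TMM, 10 and 2 without mitochondrially encoded genes).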

How the data were processed

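Total RNA of the 3 libraries was extracted with Trizol, per the labels' protocols. Cutadapt 1.9, FastQC and the build GRCm38 (a mouse assembly) are named, without a role, per the submitters' processing notes. The identifiers are human, and 99.96% of 30085 genes matched by identifier overlap their GENCODE 29 position in GRCh38. Which aligner, annotation and counting program were used, and whether strand was, is not given in the sources used here. Gene counts, as deposited by the authors, are whole numbers. The FPKM values were deposited beside them, per the file headers, and how length and library size were taken is not stated.

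CPM was computed from the counts over the library total. Ratios have Clopper-Pearson 95% intervals given the total of both counts, and levels exact Poisson intervals (SciPy 1.17.1). No test between conditions was possible. Medians of log2 differences used FPKM + 1. Genes reaching an FPKM of 1 in either library compared formed the background. The procedure was run on simulated counts with Poisson error only, which hold no spread between cultures or libraries and so cannot test for it. TMM factors came from edgeR 4.0.16. Alternatives were other library scalings, folds, filters and pseudocounts. The members, the 7 lists and the rule that names up to 3 genes per list and direction with the largest ratios were chosen with earlier results of these data known. SPRY4, ETV4, CCND1, ADAM10, ADAM17, IGF2, EGF, NRG4, NRAS, PTPN11, IGFBP2, IRS2, MUC4 and DUSP4 were added after their values were seen. So were the scalings of the list calls and the pairs of members. A biliary marker is not reported here.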

Additional observations from a re-analysis of the deposited data

How the results depend on the processing

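The number of members past the limits (0.8 and its inverse) for miR-182-5p against NC was 2 with total counts, 1 with TMM, 1 with median-of-ratios size factors and 1 after rescaling FPKM to TPM, an alternative chosen after seeing the data. At folds of 1.1, 1.5 and 2 it was 4 (4 higher and 0 lower), 0 and 0. At a fold of 1.1 it was 3 for miR-183-5p against NC (1 higher and 2 lower). Between the microRNA libraries it was 4 (4 higher and 0 lower with miR-182-5p). The shares of all genes past folds of 1.1 and 1.5 were not computed, so these counts have no background beside them. The median log2 difference of the members, with FPKM + 1, was 0.11 for miR-182-5p and 0.03 for miR-183-5p against NC. For all genes it was 0.00772 and -0.00988. After rescaling to TPM the members' median was 0.0246 and -0.0507. The median log2 ratio of all genes on that scale, without a pseudocount, was -0.0807 and -0.0935. Rescaling thus lowered the members and all genes alike. The share of all genes past the limits, in either direction, depended on the filter. At an FPKM of at least 1 it was 35.97% for miR-182-5p against NC, 16.5% for miR-183-5p against NC and 20.96% between the microRNA libraries. For miR-182-5p against NC it was 29.3% at an FPKM of at least 5, 52.4% at 10 counts and 60.9% with no filter. In the same order it was 7.63%, 38.2% and 50.2% for miR-183-5p against NC and 10.1%, 41.6% and 52.5% between the microRNA libraries. Ratios moved beyond their counting interval in 17 of 30 cases with TMM, 17 with median-of-ratios factors, 17 on the TPM scale and 13 without mitochondrially encoded genes, and in none with the deposited FPKM. The 2 ratios past the limits, ERBB2 and ERBB3 with miR-182-5p against NC, lie too far from 1 for these scalings to reverse them. Ratios near 1 did change side. They were AREG with miR-182-5p against NC and EGFR, IGF1R, EREG and DUSP6 with miR-183-5p against NC. Between the microRNA libraries they were TGFA and HBEGF. No paired analysis was possible because each group has 1 library. Counts limited HBEGF most, at 402 to 459 per library.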
